A study of Pan paniscus with 11 samples.

Results

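Genes of mitosis and cell cycle progression were examined in cultured fibroblasts, the matrix-forming cells of connective tissue, of the bonobo (Pan paniscus). The gene group was a list of 38 names, and its members were all probe sets that the array's probe annotation assigned to 1 of those names alone. Of the 38 genes, 33 had a probe set of their own, out of 8226 genes so represented on the array, and these 33 genes were covered by 46 probe sets. KIF20A, PRC1, ECT2 and TACC3 had no row in the annotation, and the only probe set of CENPA was shared with SLC35F6, so these 5 genes were not analysed here. Total RNA was hybridised from 11 cultures, 1 array each. All donor animals were described as normal. The 5 females, here female lines 1 to 5, were 9, 2, 4, 20 and 20 years old. The 5 males, here male lines 1 to 5, were 4, 2, 12, 17 and 19 years old. Standard growth and harvest applied to these 10 lines, and the remaining array came from male line 1 taken at 50% confluence. The line numbers only name the lines and pair none of them. The labels give neither the body site, the passage number nor the confluence of the standard cultures, and each line is 1 animal, so the spread between lines holds both the animals' and the cultures' own variation.

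Mitosis is driven by cyclin-dependent kinase 1 bound to cyclins A and B, whose genes are transcribed late in the cell cycle together with those of the mitotic kinases, the spindle motors and the chromosome segregation machinery. Their transcription is low in resting cells, is held down by repressor complexes outside the late cell cycle and is raised by the forkhead factor FOXM1 and the MuvB complex. The spindle checkpoint then holds back the anaphase-promoting complex until every chromosome is attached, after which securin and the cyclins are destroyed. In a fibroblast culture these transcripts are widely read as a measure of how many cells are dividing. In a bulk culture, fewer dividing cells and less RNA per dividing cell cannot be told apart.

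The cultures expressed fibroblast genes. All 12 fibroblast markers on the array were above the floor of 100 in the 11 cultures, with a median intensity of 7167, whereas the median of the endothelial (5), melanocyte (4), blood (7) and epithelial (8) markers measured was 100. In all 11 cultures 2 of the blood and 2 of the epithelial markers were above the floor, and the summed intensity of the 8 epithelial markers ran from 1757 to 2534, highest in the 50% confluence culture. The floor is the lowest intensity kept, so a value of 100 is an upper bound. Between 52.1% and 60.9% of probe sets lay above it per array. Male line 4 had the highest ratio of the 3' to the 5' control probe set of ACTB, 2.27, against 0.669 to 1.44 in the other cultures. In the 50% confluence culture the 18S ribosomal RNA control probe sets read 1508 to 2611, against at most 313 elsewhere. The part of these array differences in the results below was not tested. The sex difference and the sexes' difference in age slope are also given without male line 4.

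Most of the genes were measurable. Of the 33, 16 were above the floor in all 11 cultures and none was at the floor in every culture. The test used below took genes that exceeded the floor in 5 or more cultures, which 31 of the 33 genes did. The exceptions were CENPE, a kinesin-like motor of the kinetochore, which read 192 in female line 3, 247 in male line 3, 106 in male line 5 and 100 elsewhere, and NEK2, a centrosome kinase, whose highest intensity was 139 in male line 3. For the 9 genes with more than 1 probe set, the brightest on average was used.

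**Figure D1:**
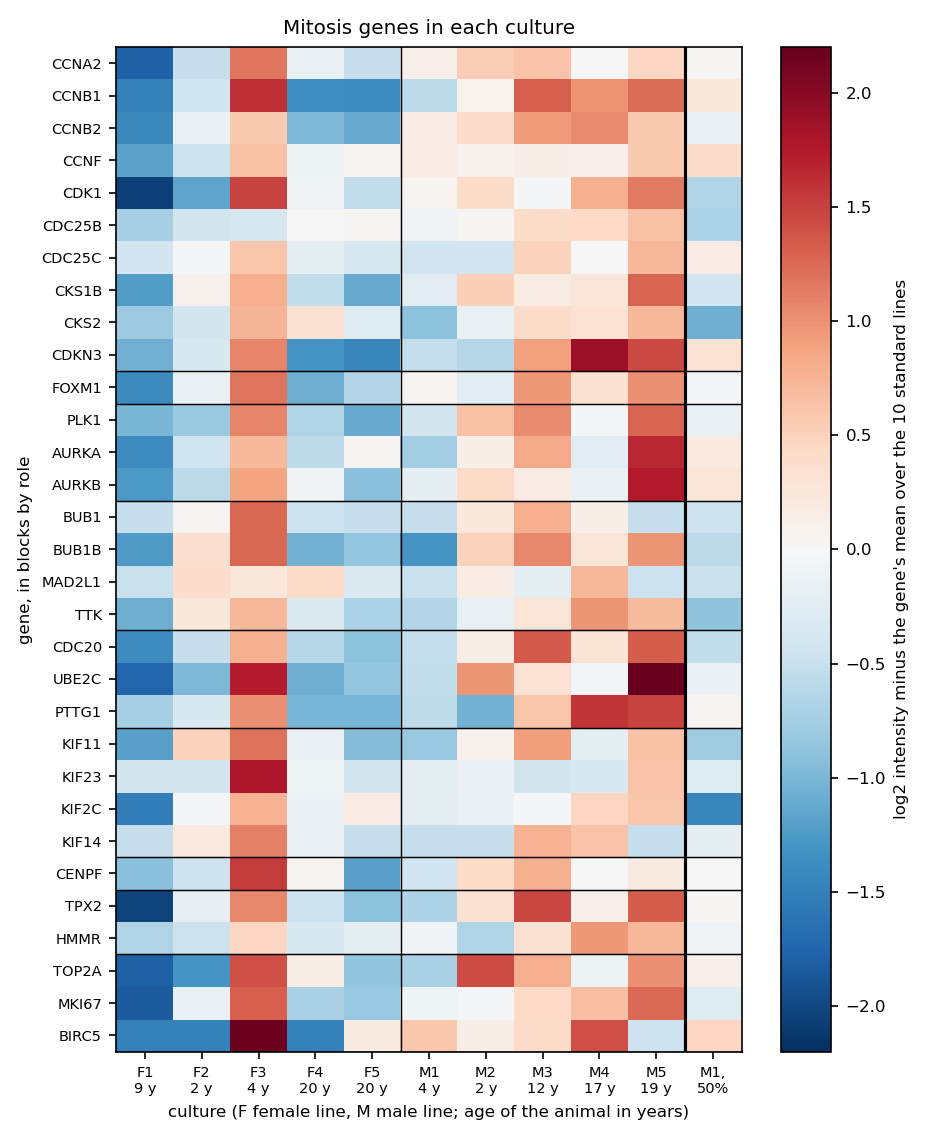
Heat map of 31 mitosis genes (rows, in blocks by role from cyclins at the top to TOP2A, MKI67 and BIRC5 at the bottom) in 11 cultures (columns, with the age of the animal in years). The colour is log2 intensity minus the gene's mean over the 10 standard lines. Female line 1 is blue in all 31 rows and female line 3 is red in 30.

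The cyclins and the partners of CDK1 came first in the cycle's order. CCNA2, the cyclin of S phase and early mitosis, read 100, 243, 776, 312 and 243 in female lines 1 to 5 and 371, 503, 533, 341 and 474 in male lines 1 to 5. CCNB1, the main cyclin of mitotic entry, read 148, 307, 1268, 162 and 161 in the females and 274, 435, 1034, 819 and 973 in the males. CCNB2, the Golgi-associated B-type cyclin, read 100, 243, 400, 136 and 124 in the females and 299, 349, 511, 550 and 398 in the males. For all 3 cyclins female line 1 was lowest and the ranges of the sexes overlapped. Female line 3 lay within or above the male range in each, and for CCNB1 female line 2 also exceeded male line 1. CDK1 itself ran from 100 in female line 1 to 1173 in female line 3, at least 11.7-fold, with a median of 422 over the 10 lines. The phosphatase gene CDC25B, which activates CDK1, was among the steadiest members, with a range of 320 to 826 and an SD of 0.42 on the log2 scale, and CDC25C stayed at or below 220 with 7 of 10 lines above the floor. CKS1B and CKS2 encode small CDK-binding proteins of closely related sequence. CKS1B ran from 297 to 1690 (SD 0.80) and CKS2 from 764 to 2417 (SD 0.60). CCNF, a cyclin-like F-box protein, ran from 199 to 704 (SD 0.52).

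CDKN3 codes for a phosphatase that removes the activating phosphate of cyclin-dependent kinases. It read 183, 301, 795, 152 and 138 in female lines 1 to 5 and 265, 245, 707, 1399 and 1036 in male lines 1 to 5. Its highest value was in male line 4, as for CCNB2, and its SD was 1.22. Its correlation over the 10 lines was 0.92 with CCNB1 and 0.87 with CCNB2. FOXM1, the transcription factor that drives many of the other members, ran from 196 in female line 1 to 1171 in female line 3, with a median of 496.

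The 3 tested mitotic kinase genes had their highest values in male line 5. AURKB, the kinase of the chromosomal passenger complex, ran from 281 in female line 1 to 2266 in male line 5, where the next line, female line 3, read 1232. AURKA, the centrosome and spindle kinase, read 111, 216, 480, 195 and 305 in the females and 171, 320, 521, 245 and 920 in the males. Its second probe set was instead highest in male line 4, at 639, with 391 in male line 5. PLK1, which acts from mitotic entry to cytokinesis, ran from 357 in female line 5 to 1887 in male line 5, with 1631 in female line 3 and 1583 in male line 3. Taken as the median of the 3 tested kinases, male line 5 stood 1.66 above the genes' means on the log2 scale, female line 3 0.86 and male line 4 -0.14. The median of CDC20, UBE2C and PTTG1 in male line 5 was 1.49.

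The 4 spindle checkpoint genes were split in male line 5, where their median was 0.11. BUB1B (499) and TTK (344) were above their means there, while BUB1 (100) and MAD2L1 (101) were at or near the floor. BUB1B ran from 104 in male line 1 to 610 in female line 3, and TTK, the kinase at the head of the checkpoint, from 100 to 413. BUB1 was above the floor in 6 of the 10 lines with a highest value of 342 in female line 3. MAD2L1, the checkpoint protein that binds CDC20, gave weak signal throughout, at most 234, and of its further probe sets 1 reached 279 and 1 was at the floor in all 11 cultures.

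Genes around the anaphase-promoting complex were among the most variable. UBE2C, the complex's ubiquitin-conjugating enzyme, read 289, 488, 3204, 464 and 538 in female lines 1 to 5 and 669, 1914, 1214, 948 and 4557 in male lines 1 to 5. That is a 15.8-fold range and, with an SD of 1.30, the widest of the 31 genes. Female line 3 and male line 5 lay above every other line. CDC20, the activator of the complex, ran from 383 in female line 1 to 2547 in male line 3, with 2500 in male line 5. PTTG1, the securin that is destroyed at anaphase, read 312, 414, 1047, 257 and 257 in the females and 352, 253, 793, 1552 and 1457 in the males, so that it was high in male line 4, where UBE2C was not.

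Kinesin genes stood highest in female line 3. KIF11, the motor that pushes spindle poles apart, read 525 there, KIF23, a motor of the central spindle, 458, KIF2C, a microtubule depolymerase, 485, and KIF14, a motor of cytokinesis, 305. KIF23 was otherwise at most 206 and KIF14 was above the floor in 5 of the 10 lines. KIF2C read 100, 281, 485, 261 and 325 in the females and 247, 259, 281, 397 and 437 in the males, so that the remaining lines were close together once female line 1 was set aside. CENPF, a large kinetochore protein, ran from 100 in female line 5 to 667 in female line 3.

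Spindle and chromosome genes completed the group. TPX2, which activates Aurora A on the spindle, read 147, 530, 1255, 435 and 321 in the females and 375, 759, 1681, 649 and 1513 in the males. HMMR, a spindle-associated hyaluronan receptor, ran from 100 to 307, highest in male line 4. TOP2A, the topoisomerase that untangles sister chromatids, read 118, 168, 1103, 449 and 226 in the females and 252, 1106, 712, 383 and 824 in the males. It was the 1 gene whose probe set in use was highest in male line 2, and female line 3 was nearly level there. Its further probe sets were highest in male line 5 (658) and in female line 3 (682). MKI67, which codes for the proliferation antigen Ki-67, ran from 100 in female line 1 to 890 in female line 3, with 845 in male line 5. BIRC5, or survivin, read 100, 100, 1255, 100 and 322 in the females and 426, 310, 376, 753 and 204 in the males. Its SD of 1.25 rested on this probe set: the other BIRC5 probe set had an SD of 0.47 and was at most 347, and the correlation between them over the lines was 0.37.

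Read across genes, the lines differed as wholes. For each line the median over the 31 genes of the log2 difference from the gene's mean was taken. It was -1.22, -0.40, 1.07, -0.34 and -0.69 in female lines 1 to 5 and -0.44, 0.14, 0.61, 0.31 and 0.74 in male lines 1 to 5. Female line 1 had 0 of 31 genes above the mean and 14 at the floor, and it held the lowest value, ties included, of 25 genes. Female line 3 had 30 of 31 above the mean and held the highest value of 15 genes. Of the others, 7 genes peaked in male line 5, 6 in male line 4, 2 in male line 3 and 1 in male line 2. These counts hold for the probe sets in use. Among the 15, another tested probe set was highest in male line 3 for CCNB1 (1124, female line 3 735), BIRC5 (347 and 261) and CCNF (301 and 212). For MKI67 another was highest in male line 4 (525, female line 3 444). The median ratio of female line 3 to female line 1 was 4.38-fold, with genes at the floor in female line 1 counted at 100. Male line 4, the array of highest 3' to 5' ratio, ranked 4 of 10.

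**Figure D2:**
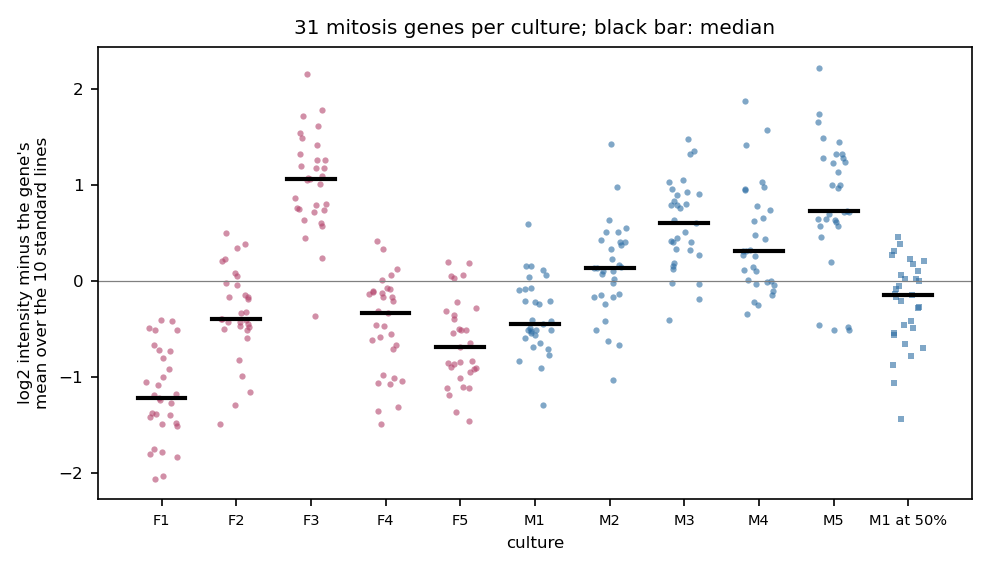
Each point is 1 of 31 mitosis genes in 1 culture (F female line, M male line, last column the 50% confluence culture of male line 1). The vertical axis is log2 intensity minus the gene's mean over the 10 standard lines, and the black bar is the median. Female line 3 has the highest median, 1.07, and female line 1 the lowest, -1.22.

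The genes varied more than most of the array and varied together. Their SD over the 10 lines ran from 0.42 (CDC25B) to 1.30 (UBE2C) with a median of 0.87, against a median of 0.43 over 7333 tested probe sets. An SD above 0.5 was seen for 28 of 31 genes and for 33.6% of tested probe sets. Over the 465 pairs of members, the median Pearson correlation across the 10 lines was 0.69, and it exceeded 0.5 in 83.9% of pairs, against a median of 0.01 and 8.82% of pairs among 5360 tested genes. These correlations share 10 arrays, female lines 1 and 3 lie at their ends, and they are given as description. The closest pair was PTTG1 and CDKN3 (0.98), followed by CDC20 and TPX2 (0.97). Set against the median of the remaining members, MKI67 (0.95), TPX2 (0.95), CCNB1 (0.94) and CDC20 (0.94) followed the group most closely. MAD2L1 (0.24) and CDC25B (0.56) followed it least. Different probe sets of the same gene correlated at 0.37 to 0.97 over 11 pairs, highest for CCNB1 and lowest for BIRC5.

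Genes outside the list with the most similar profile were then sought. Over 5329 genes, the 10 of highest correlation with the member median across the 10 lines were ANP32E (0.95), KPNA2 (0.95), FUBP1 (0.94), TK1 (0.92), KIFC1 (0.92), FUT4 (0.90), DLGAP5 (0.89), STMN1 (0.89), UBE2S (0.89) and CTCF (0.89). KPNA2, the nuclear import adaptor, ran from 361 in female line 1 to 1550 in female line 3, and TK1, thymidine kinase, from 552 to 2656. KIFC1 is a minus-end spindle motor, DLGAP5 a spindle protein, STMN1 a tubulin-binding protein and UBE2S the chain-extending partner of UBE2C. FUT4 was weak, at most 215 and at the floor of 100 in female lines 1, 2, 4 and 5.

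The first comparison of the design was between male and female lines. No member passed. Estimates came from limma fitted jointly for sex and age over 7333 probe sets, with Benjamini-Hochberg adjustment. The fit called 0.0273% of probe sets, 2 in all, and 0 of the 31 members, whose adjusted p was 0.9999 throughout. At an unadjusted p under 0.05 there were 6 members, all with higher estimates in males, against 2.33% of all probe sets, or 1.42% with higher estimates in males. The estimate was above 0 for 28 of 31 members and for 50.6% of tested probe sets, with a median member estimate of 0.70 log2 against 0.00 over all. It exceeded 0.5 for 20 members and for 4.27% of tested probe sets. With the 2 weaker genes included, 30 of 33 were above 0. The members correlate with each other across the lines, so they are not independent observations.

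By size, the estimates for male minus female were 1.24 ± 0.56 (SE) for CDKN3, 1.23 ± 0.38 for CCNB2, 1.20 ± 0.56 for CCNB1 and 1.18 ± 0.59 for UBE2C. Without female line 3, UBE2C stood at 1.83 and CCNB1 at 1.81, and without male line 5 UBE2C stood at 0.67. CDKN3 stood at 0.91 without male line 4. CCNB2 had the mean intensities 201 ± 124 in females and 421 ± 106 in males (SD, n = 5), and CCNB1 409 ± 484 and 707 ± 336. In no member did every male line lie above every female line, which held for 0.205% of tested probe sets. The checkpoint genes (median 0.25) and the kinesins (0.09) had smaller estimates than CDC20, UBE2C and PTTG1 (1.05) and the 3 kinases (0.80). Several of these checkpoint genes and kinesins were weak: BUB1, MAD2L1, KIF23 and KIF14 exceeded the floor in 6, 8, 7 and 5 of the 10 lines. Values at the floor narrow such differences, and their part here was not tested. KIF23 (-0.19), MAD2L1 (-0.10) and KIF14 (-0.05) were the members below 0. Female line 3 weighed on this most. Without it the median estimate was 1.10, with 30 of 31 above 0, and without female line 1 it was 0.49, with 24 above 0. Without male line 5 it was 0.48, with 29 above 0. Without male line 4 it was 0.60, with 27 above 0. No member passed in any of these.

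**Figure D3:**
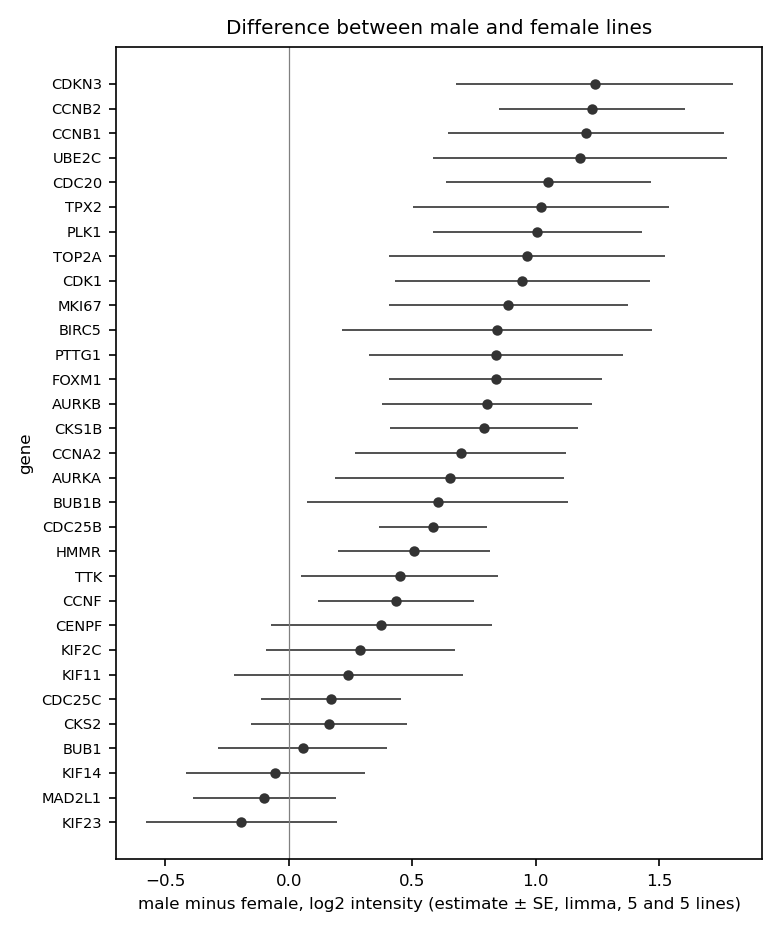
Estimated difference between male and female lines in log2 intensity for 31 genes, with bars of 1 SE from limma (5 female and 5 male lines, age in the model). Estimates run from -0.19 for KIF23 to 1.24 for CDKN3, and none passed the adjusted threshold.

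Donor age, the second comparison, showed no common direction. The same limma fit called 0% of probe sets for age and 0 members, with an adjusted p of 0.999 for each member. At an unadjusted p under 0.05 there were 0 members, against 3.42% of all probe sets, 1.84% with slopes above 0. Slopes were below 0 for 17 members and above 0 for 14, where 49.4% of tested probe sets were above 0, with a median of -0.02 log2 per 10 years. They ran from -0.34 for BUB1 to 0.32 for CDC25B, with a median SE of 0.29. None exceeded 0.5, as 1.36% of tested probe sets did. The split turned on single lines. Without female line 3, which came from a 4-year-old animal, 29 of 31 slopes were above 0 (median 0.27), and without male line 1 or male line 5, 9 were.

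The age slope was next compared between the sexes. All 31 member estimates for the male slope minus the female slope were above 0, as were 50.6% of tested probe sets, with a median of 0.86 log2 per 10 years. It exceeded 0.5 for 24 members and for 11.4% of probe sets. The limma fit called 0.0136% of probe sets, 1 in all, and 0 members. There were 10 members with an unadjusted p under 0.05, against 4.84% of probe sets, or 1.88% with estimates above 0. The largest estimates were 2.39 ± 0.47 (SE) for CDKN3 (adjusted p = 0.376), 2.25 ± 0.41 for PTTG1 (adjusted p = 0.289) and 1.90 ± 0.61 for CCNB1 (adjusted p = 0.949). Without male line 4 they were 2.23 for CDKN3, 2.17 for PTTG1 and 1.98 for CCNB1, each with a limma adjusted p of 0.999. For CDKN3 the 3 oldest males read 707, 1399 and 1036 and the younger males 265 and 245, whereas the females aged 20 years read 152 and 138 and those aged 2 and 4 years 301 and 795. PTTG1 had the same order, with 793 to 1552 in males of 12 years or more, 253 and 352 in younger males, and 257 in both 20-year-old females. At the other end TOP2A (0.08), CCNF (0.11), CDC25B (0.11) and CCNA2 (0.15) had the smallest estimates. Further probe sets of these genes gave larger ones, 1.44 and 1.43 for TOP2A, 0.61 for CCNA2 and 0.31 for CCNF.

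Within the sexes, the median member slope was 0.46 log2 per 10 years in males, with 29 of 31 above 0, and -0.48 in females, with 28 of 31 below 0. The median female slope rested on female line 3, without which it was -0.01, with 17 below 0 and 14 above. For the 3 genes with the largest estimates the female slope without female line 3 was smaller but still below 0. It went from -0.92 to -0.54 for CDKN3, from -0.98 to -0.40 for CCNB1 and from -0.71 to -0.36 for PTTG1. In the fit without female line 3, 26 of the 31 estimates of the difference were above 0 and their median was 0.48. Leaving out any other line gave 29 to 31 above 0 and medians of 0.72 to 1.07, and without male line 4 there were 29 above 0 (median 1.02).

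**Figure D4:**
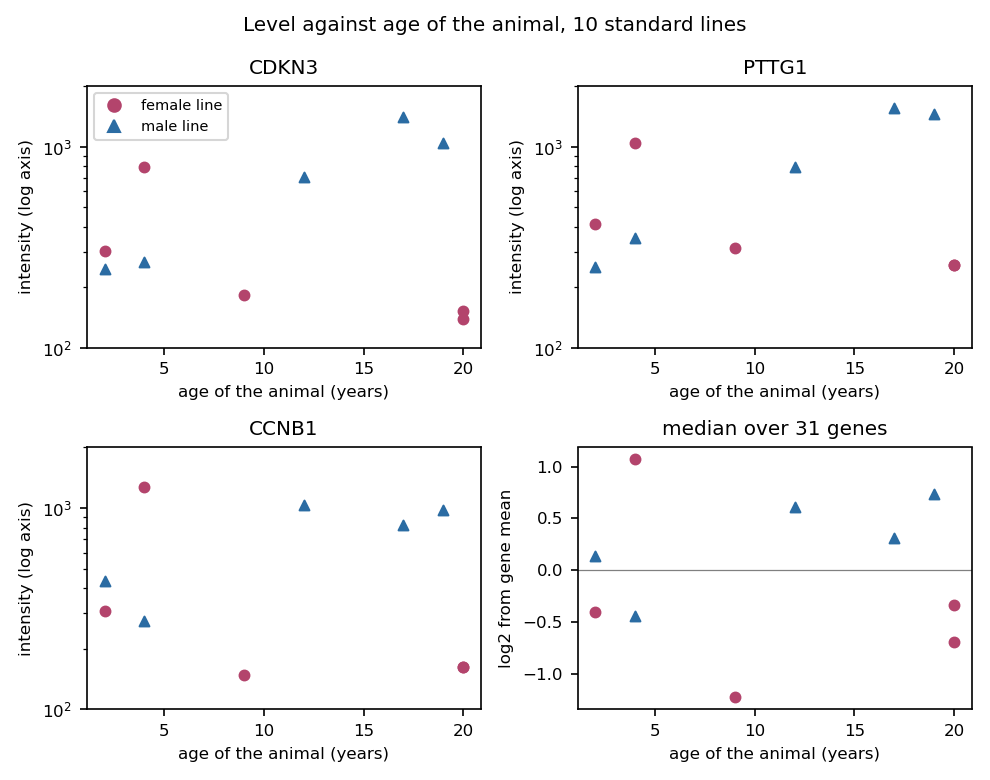
Intensity of CDKN3, PTTG1 and CCNB1 on a log axis, and the median over 31 genes of log2 intensity minus the gene's mean, against age in years for 5 female lines (circles) and 5 male lines (triangles). The 3 males of 12 years or more have CDKN3 intensities of 707 to 1399, above the 2 younger males at 245 and 265. The female lines aged 20 years coincide for PTTG1 (257 in both) and nearly coincide for CCNB1 (161 and 162).

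The effect of confluence at harvest could be described in male line 1 alone. Each state is a lone array, so replicate error is unknown here and nothing was tested. The 18S signal also differed between these arrays (100 against 1508 to 2611). So did the 3' to 5' ratio of ACTB (1.42 in the standard culture and 0.669 at 50% confluence) and of GAPDH (1.17 and 0.815). The part of these array differences in the comparison was not tested. Of the 31 genes, 27 were above the floor in both cultures, 13 of them higher and 13 lower at 50% confluence, with HMMR equal at 150. Over the 6028 tested probe sets above the floor in both, 50.3% were higher and 49.4% lower. The median difference was 0.00 log2 over the members and 0.00 over those probe sets. Differences over 2-fold were seen for 1 of 27 members and for 9.79% of those probe sets, 4.96% higher and 4.83% lower. That member was KIF2C, with 247 in the standard culture and 105 at 50% confluence.

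Most roles with several members held both higher and lower genes at 50% confluence, whereas the 3 mitotic kinases were all higher, PLK1 by 0.24 log2. AURKA read 171 in the standard culture and 337 at 50% confluence, CCNB1 274 and 486, CDKN3 265 and 470, TOP2A 252 and 442, TPX2 375 and 614, PTTG1 352 and 543, and AURKB 586 and 818. In the other direction CDK1 read 437 and 264, CDC25B 504 and 326, CCNB2 299 and 242, and CKS1B 585 and 519. The B-type cyclins CCNB1 (0.83 log2) and CCNB2 (-0.31) stood on opposite sides, as did CDK1 (-0.73) and its partner CCNB1. The second CDK1 probe set, however, was at the floor in the standard culture and read 150 at 50% confluence, so the direction for CDK1 depends on the probe set. The same held for MKI67, at -0.17 with the brighter probe set and 0.32 with the other, while both BIRC5 probe sets were lower, the brighter at 426 and 386 and the other at 218 and the floor. CDC25C, KIF14 and BUB1 were at the floor in the standard culture and read 151, 123 and 104 at 50% confluence, and MAD2L1 was at the floor in both. CKS2 read 764 and 684, and was the 1 member outside the range of the 10 standard lines.

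**Figure D5:**
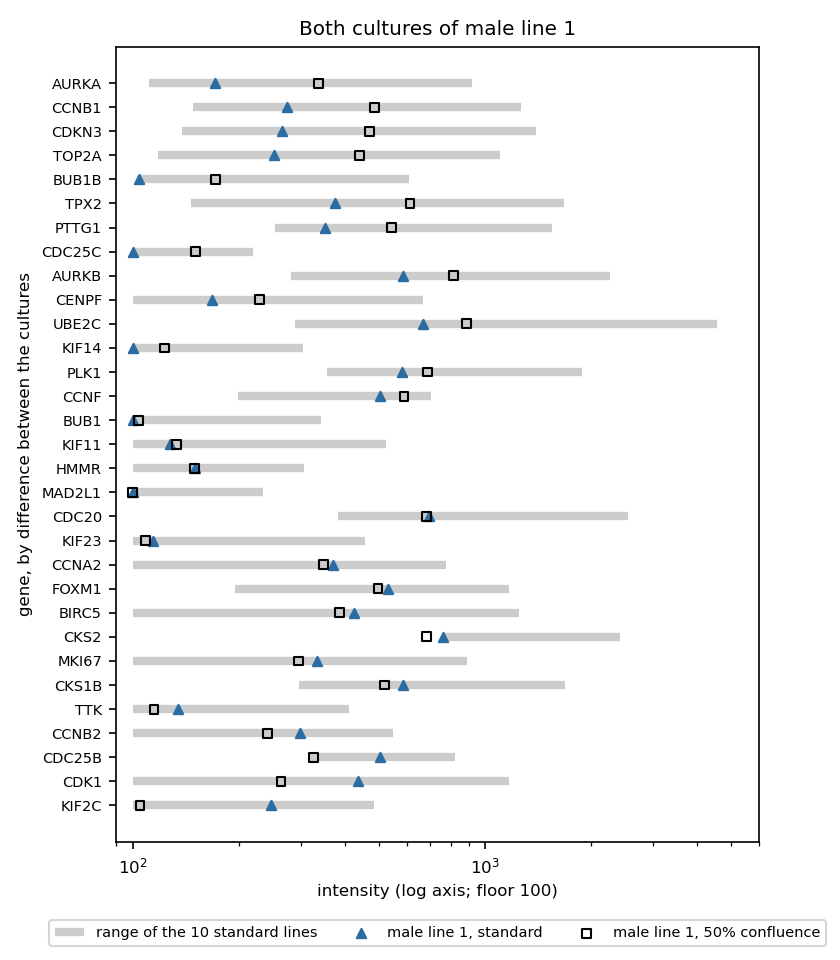
Intensity of 31 mitosis genes (log axis) in the standard culture of male line 1 (triangles) and its culture at 50% confluence (squares), with the range of the 10 standard lines as grey bars. Genes are ordered by the log2 difference, from KIF2C at the bottom (-1.23) to AURKA at the top (0.98). CKS2, at 684, is the only square outside its bar.

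Over these genes both cultures of male line 1 were close. The root mean square log2 difference over the 31 genes was 0.52 between them, and it was 0.55 to 2.36, median 1.04, over the 45 pairs of different standard lines. The lowest of these, 0.55, was between male line 1 itself and female line 5. With the deposited scaling and a floor of 100 none of the 45 pairs was closer than male line 1 to itself, but 1 pair was with a floor of 150 or 200 or with probe sets averaged. From the 50% confluence culture to the other 9 lines the distance was 0.73 to 1.38. The median over members was -0.15 at 50% confluence and -0.44 in the standard culture.

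Genes that act next to the members in the cycle were described from further lists. Of 44 other mitosis genes on the array, 38 were tested, and none passed for sex, age or their combination. Their median sex estimate was 0.27, with 26 of 38 above 0, and their per-line median correlated with that of the members at 0.93 over the 10 lines. The largest sex estimates among them were those of DLGAP5 (0.91), separase ESPL1 (0.89) and the condensin subunit NCAPD2 (0.83). At 50% confluence 12 of 31 were higher and 19 lower (median -0.20), against 50.3% and 49.4% of all tested probe sets above the floor in both cultures. Among them KIFC1 read 445 in the standard culture and 200 at 50% confluence, and NCAPD2 159 and 332.

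DNA replication genes, which act before mitosis, mostly read lower at 50% confluence. Of 32 tested, 26 exceeded the floor in each culture of male line 1. Of these 23 were lower at 50% confluence and 9 by over 2-fold (median -0.75). Over all tested probe sets above the floor in both cultures, 49.4% were lower and 4.83% lower by over 2-fold. Among those 26 the largest differences were those of the chromatin assembly subunit CHAF1A (550 in the standard culture and 180 at 50% confluence), the clamp loader subunit RFC2 (335 and 111) and the helicase subunit MCM4 (580 and 206). ORC1, a subunit of the origin recognition complex, read 430 in the standard culture and was at the floor at 50% confluence. Whether this differs from the members was not tested. Between lines their median correlated with that of the members at 0.59, their median sex estimate was 0.08, and none passed. TK1 (0.92) and TYMS, thymidylate synthase (0.85), followed the member median, whereas the origin licensing gene CDC6 (-0.12) did not. The per-line median of the G1 cyclins and kinases correlated with that of the members at 0.23. Of the 7 above the floor in both cultures of male line 1, 4 were higher at 50% confluence and 2 lower (median 0.25). CDK2 read 2000 in the standard culture and 1132 at 50% confluence, the D-type cyclin CCND2 445 and 727, and CCND1 10006 and 13476. CCNE1 (323), CCNE2 (358) and the phosphatase gene CDC25A (408) were above the floor in the standard culture and at the floor at 50% confluence.

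Of the 10 tested CDK inhibitors and p53 targets, 8 were higher at 50% confluence (median 0.55). Over all tested probe sets above the floor in both cultures, 50.3% were higher. The inhibitor gene CDKN1A read 2904 in the standard culture and 5636 at 50% confluence, and the p53 target CCNG1 178 and 521. Their per-line median correlated with the members at -0.14. Of 15 tested genes of RB, E2F and MuvB proteins, 7 had sex estimates above 0 and the correlation was 0.23. Of the 13 above the floor in both cultures of male line 1, 8 were higher at 50% confluence and 5 lower (median 0.07). The 1 gene lower by over 2-fold was E2F1, with 407 in the standard culture and 156 at 50% confluence. Of the core anaphase-promoting complex and its partners 6 were tested, of which 4 were higher at 50% confluence and 2 lower (median 0.11). FZR1, the activator that takes over from CDC20, ran from 546 to 1358 over the lines with a correlation to the member median of 0.03, and read 1336 in the standard culture of male line 1 and 615 at 50% confluence. None of these lists had a gene that passed for sex, age or their combination with limma. At an unadjusted p under 0.05 the sex estimate picked out 2 other mitosis genes and 1 of the core complex list, and the difference in age slope 5 other mitosis genes, 1 replication gene and 2 of the RB, E2F and MuvB list. Over all probe sets these shares were 2.33% for sex and 4.84% for the difference in age slope.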

How the data were processed

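The deposited file holds 1 whole-number intensity on a linear scale for each of 12625 probe sets of an Affymetrix human array. The authors' probe summary and scaling are not stated in the labels or the file header. Low deposited intensities had been set to a fixed minimum, 100 or slightly less. Human probes can bind bonobo transcripts less well, so intensities were compared between cultures for 1 probe set. Symbols came from an annotation of 2016, and 38 of the 38 members were found in a bonobo gene table. The 67 control probe sets were left out, values were floored at 100, and log2 was taken. The 7333 probe sets above 100 in at least 5 of 11 arrays entered linear models of sex and age, and of sex by age, over the 10 standard lines (limma 3.58.1, R 4.3.3, moderated with a trend on intensity). P-values are two-sided with Benjamini-Hochberg adjustment over all probe sets and a threshold of 0.05, and they measure spread between lines of different animals. The number of arrays limits the precision. The fits were checked on simulated data with planted differences and noise drawn separately for each probe set. Unlike the members, the simulated probe sets did not vary together. How often a difference of the size seen in the members would pass is not given here. Members and lists were chosen with earlier results of these data known. By rule, values in every line are given for the 6 members of largest SD, the 4 of largest sex, the 3 of largest sex by age and the 4 of largest harvest difference. Outside the members, the rule named the 10 most and 5 least correlated genes and 2 to 3 genes per list of largest sex or harvest difference. CCNA2 and the list genes CCNE1, CCNE2 and CDC25A were added after their values were seen. Alternatives were other scalings, floors, filters, a pseudocount, probe-set averaging, variance models, log age and leaving out each line. Promoter and protein sequences were not used here.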

Additional observations from a re-analysis of the deposited data

Results flagged for a closer look

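A single line stood far from the rest of its sex, or of the 10 lines, in 7 of 96 groups of values examined; the criterion, Dixon's critical value, would pick out about 1 in 20 independent groups by chance, and these groups share lines. Female line 3 stood above the other 4 females for PLK1 (1631, others 357 to 486), UBE2C (3204, others 289 to 538) and KIF23 (458, others 100 to 124). For KIF23 it also stood above the other 9 lines (100 to 206). Male line 5 stood above the other 4 males for KIF23 (206, others 100 to 121) and CCNF (673, others 485 to 505). Female line 1 stood below the other 9 lines for KIF2C, at the floor of 100 against 247 to 485. In KIF23, several of the other values were at the floor, which narrows their spread.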

How the results depend on the processing

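Across 23 alternatives, 10 of them leaving out a line, 0 members passed for sex, age or sex by age. Single age slopes and small sex estimates did change sign when a line was left out, as the counts show, and the median age slope was -0.02 with all lines and -0.18 to 0.27 without 1 of them. With only the 16 genes above the floor in all arrays, 16 sex estimates, 16 sex by age estimates and 9 age slopes were above 0, fewer because fewer genes were kept. Leaving out a line gave 9 to 29 age slopes above 0, 24 to 30 sex estimates (median 0.48 to 1.10) and 26 to 31 sex by age estimates (median 0.48 to 1.07). In the harvest comparison, 2 members differed over 2-fold with median centring, and 0 with a floor of 150, a floor of 200 or log2 of the value plus 50; the raised floor and the added 50 shrink ratios of weak genes. In the distances over members, recomputed by settings chosen after seeing the data, 1 pair of lines was closer than male line 1 to itself with a floor of 150, with a floor of 200 and with the mean over probe sets; the cause was not tested. The median SD of the members was 0.64 to 0.87 in the other settings. Of 341 further values, 307 were counted as the same and 34 as moved, by rules that differed with the kind of value. For the limma estimates of single genes the rule asked only for the same sign and the same side of the threshold. The sex estimate of UBE2C, 0.67 to 1.83 without 1 line, was thus counted as the same. The moved values were counts of all probe sets called (13 for sex, 1 for age, 18 for sex by age) and 2 SDs of BIRC5. No paired analysis of the sexes was possible because the labels match no female line to a male line, and the line numbers only name the lines. Weak signal limits 15 tested members, which were at the floor in some culture.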

Other observations

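The genes running most opposite to the members over the 10 lines were the apolipoprotein gene APOM (-0.92), TSC22D4 (-0.85), the growth factor gene FGF4 (-0.83), the protease inhibitor gene SERPINA3 (-0.82) and the sorting adaptor gene GGA2 (-0.80). Apart from TSC22D4 they were weak. APOM read 318 in female line 1 and was at the floor of 100 in female line 3, male line 3 and male line 5. FGF4 did not exceed 229 in any line. TSC22D4 was above the floor throughout, from 348 in female line 3 to 622 in female line 4.

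Peak lines differed within pathways. CCNB2, PTTG1, CDKN3, TTK, HMMR and MAD2L1 were highest in male line 4, while PLK1, AURKA, AURKB, UBE2C, CKS1B, CDC25B and CDC25C were highest in male line 5. For MAD2L1 the peak of 234 was weak, and another probe set was highest in female line 3 (279), with 138 in male line 4. In male line 4, PTTG1 read 1552 and UBE2C 948, and in male line 2 PTTG1 read 253 and UBE2C 1914. The ACTB ratio of 3' to 5' signal was 2.27 on the array of male line 4 and 1.26 on that of male line 5, and its part in this was not tested. Both AURKA probe sets were measurable but peaked in different lines, 920 in male line 5 for the brighter and 639 in male line 4 for the other, with a correlation of 0.59.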
